A study of Mus musculus with 6 samples.

Results

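Intraflagellar transport and transition zone genes were examined in sorted olfactory sensory neurons (OSNs), which detect odours in the nose. The set holds 41 genes chosen by their role in the pathway, with earlier results of these data known. Every probe set whose annotation gives a single symbol from the set was taken, with the older symbol Rp2h read as Rp2. On the arrays 39 of the 41 genes had such a probe set, 62 probe sets in all, among 18193 genes with 35041 probe sets. Rpgrip1l and Arl13b had none with a single symbol and are not analysed here. By role, 14 of the 41 genes belong to train B, 5 to train A and 3 to the motors. A further 14 are transition zone genes and 5 are genes of membrane protein trafficking.

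The study set out to find transcripts enriched in OSNs. RNA came from 3 populations of OMP-GFP mice, where a GFP sequence stands in for the coding part of Omp, a gene of mature sensory neurons of the olfactory and vomeronasal organs. The first was GFP-positive OSNs sorted by flow cytometry (about 500000 cells), the second the olfactory epithelium left after their removal (about 2500000 cells, here the residual epithelium), and the third brain without olfactory bulbs. All 3 therefore carry the same allele. The labels describe sorting for OSNs against the rest of the epithelium and none for brain. Age, sex, strain, the number of animals and whether the allele was on 1 or both chromosomes are not stated in the labels. Each population was hybridised to 1 array of each of the paired Affymetrix mouse 430 chips, A and B, so no difference below has a replicate check and no p-value is given. In such bulk RNA, fewer cells of a type and less RNA per cell cannot be told apart.

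A cilium is built from its tip by intraflagellar transport. Train B complexes, pulled by kinesin-2, carry axoneme and membrane parts outward, and train A complexes, pulled by dynein-2, return them and help membrane proteins to enter. At the base the transition zone, a set of Meckel and nephronophthisis proteins between axoneme and membrane, controls which proteins pass. OSNs hold their odorant receptors and transduction channels in cilia that spread over the surface of the epithelium, and loss of several of these genes is known to disturb smell in mice or people.

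Many cilia genes carry an X-box, the palindromic site of RFX transcription factors, near their start. The promoter window of each gene (250 bases before to 50 after the annotated start, RefSeq, GRCm38.p6) was searched on both strands for a stricter X-box, GTTNCC and GNAAC with 3 bases between them, and a looser one, GTNNCC and GNNAC with 3 bases between them, which every stricter match also meets. Each match was counted once where both strands gave it. Windows were found for 36 of the 41 genes. Those of Ift80, Ift81, Ift122, Dync2li1 and Tmem67 were not in the table used. The stricter motif lay in the windows of 5 of 36 genes (13.9%), against 1.29% of the 9929 genes that had a window and a usable signal in OSNs or residual epithelium, and 0.936% of all 27025 genes in the table. The looser motif lay in 12 of 36 (33.3%), against 6.84% and 5.26%. By window the stricter motif was in 5 of 43, or 11.6%, against 0.804% of 32851. No test was made of these shares. The 5 genes with the stricter motif are shown first, then 1 gene of each train that had the looser motif only, with the match in capitals (for Ift57, the first of its 2 matches).
Ttc26, chr6:38381451-38381534, plus strand: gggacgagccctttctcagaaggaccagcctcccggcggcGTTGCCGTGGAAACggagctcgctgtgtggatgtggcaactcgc
Mks1, chr11:87853151-87853234, plus strand: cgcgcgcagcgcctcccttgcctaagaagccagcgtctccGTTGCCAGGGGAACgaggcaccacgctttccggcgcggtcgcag
B9d2, chr7:25680756-25680809, plus strand: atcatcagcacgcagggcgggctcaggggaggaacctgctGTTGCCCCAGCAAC
Ahi1, chr10:20952552-20952581, plus strand: cccgtccctagtctgaGTTACCTAGGCAAC
Tctn1, chr5:122264411-122264440, minus strand: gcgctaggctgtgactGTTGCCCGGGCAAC
Ift57, chr16:49699167-49699250, plus strand: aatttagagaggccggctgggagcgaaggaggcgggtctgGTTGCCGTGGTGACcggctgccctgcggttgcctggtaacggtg
Wdr19, chr5:65199622-65199705, plus strand: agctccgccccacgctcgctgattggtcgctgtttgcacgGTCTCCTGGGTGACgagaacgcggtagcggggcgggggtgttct

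The letters are written 5′ to 3′ on the strand of the gene. In Ttc26 and Mks1 the match lay upstream of the start, at bases -33 to -20 and -24 to -11. In B9d2, Ahi1 and Tctn1 it lay downstream, at bases 17 to 30, 22 to 35 and 37 to 50, counted from 1 at the first transcribed base. By role, the looser motif lay in 3 of 12 train B genes with a window, 1 of 4 of train A and 1 of 2 motor genes. It lay in 7 of 13 transition zone genes and none of 5 genes of membrane protein trafficking. A match describes the letters of the window and not a bound site, and windows without a match say nothing about RFX factors.

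**Figure D1:**
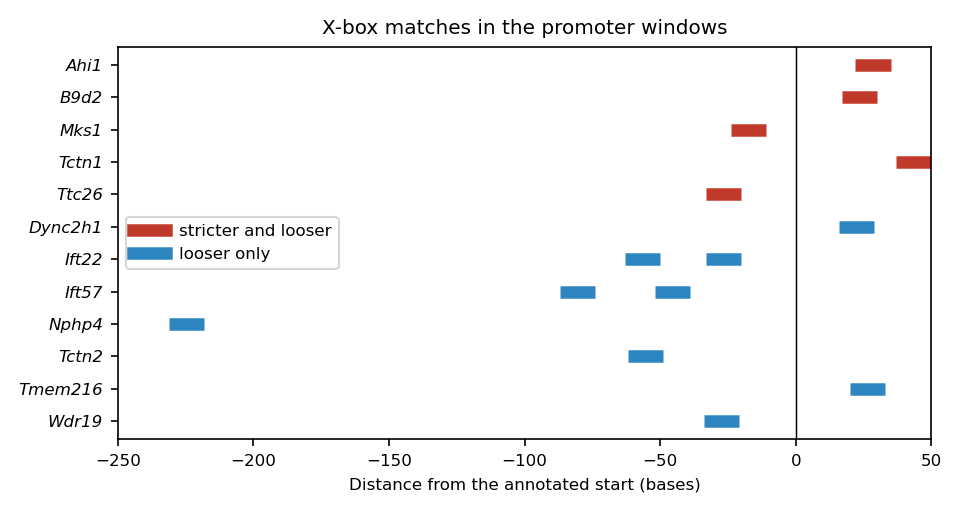
Position of each X-box match (horizontal axis, bases from the annotated start, which is the vertical line) in the 12 genes that had one. Red bars match both motifs and blue bars the looser one only. The match of Nphp4, at bases -231 to -218, lies farthest from its start.

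Signals are probe set intensities on a linear scale in arbitrary units, deposited as MAS5 output, compared within a chip. Signals under the lower quartile of a chip (70.6 on chip A, 79.9 on chip B) were raised to it, and a probe set was counted in a comparison if the higher of its 2 signals was at or above the median of the chip (222 on chip A, 243.6 on chip B). Each gene takes its value from its brightest probe set by mean rank of signal, and a ratio of 2-fold or more was counted as higher or lower. Repeated measurement gives a yardstick: for 99 counted probe sets present on both chips, the log2 ratio of OSNs over residual epithelium differed between chips by 0.23 on average with an SD of 0.25, and that of OSNs over brain by -0.19 with an SD of 0.29 (chip A minus chip B). For residual epithelium over brain it was -0.42 with an SD of 0.34. Different probe sets of the same member had a pooled SD of 0.57 and 0.51 log2 units. These spreads compare chips and probe sets and say nothing of how animals vary. The SD between chips comes from the shared probe sets alone and was not measured for the others.

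The labels were checked against markers of cell types, in lists also chosen with earlier results of these data known. All 10 counted genes of mature OSNs reached 2-fold or more over both other populations in OSNs, and Omp had signals of 11057 in OSNs against 248.8 in residual epithelium and 201 in brain, though Omp was the basis of the sort and its coding region is replaced in these mice. The summed signal of the OSN list on chip A was 72384 in OSNs against 3562 in residual epithelium and 3943 in brain. Lists of brain neurons and of brain glia and ependyma were lower in OSNs than in brain by at least 2-fold for all 9 counted genes each. In residual epithelium, blood and marrow genes were at least 2-fold higher than in OSNs for all 11 counted (median log2 ratio of OSNs over residual epithelium -5.80, with 4 of the OSN signals under the floor, so that it is a bound), as were 7 of 9 genes of immature OSNs and progenitors (-2.47), all 5 basal cell genes (4 of them under the floor in OSNs) and 4 of 9 sustentacular and gland genes (-0.95). By that ratio the lists ran from Ric8b and Gng13 (lowest) to S100a5 and Cnga4 (highest) for mature OSNs, from Neurod1 and Cxcr4 to Gap43 and Stmn1 for immature ones, from Bpifb9b and Ltf to Cyp1a2 and Cyp2g1 for sustentacular cells and glands, and from Camp (a bound) and S100a8 to Cd79a and Cd74 for blood. Of basal genes Krt5 had a measured ratio, -1.74, and Krt14, Krt15, Trp63 and Icam1 had bounds with no order. The sustentacular genes Cyp2g1 (3822 in OSNs against 2657 in residual epithelium and 103 in brain) and Cyp1a2 (424 in OSNs against 335 in residual epithelium and 16.4 in brain) had higher signals in sorted OSNs, within 2-fold of residual epithelium, and 5 of 8 counted genes of that list were at least 2-fold above brain in OSNs (median 3.39). The summed signal of the 9 genes of that list on chip A was 12673 in OSNs against 32971 in residual epithelium and 869.7 in brain. The part of these cells in the results below was not tested. The brain lists ran from Gad2 and Slc17a7 to Camk2a and from Cx3cr1 and Slc1a3 to Aqp4 and Aldoc. For the actin control, signal at its 3′ end over that at its 5′ end, which can reflect RNA quality, gave ratios of 1.42 and 1.34 in OSNs on chips A and B, 1.23 and 1.15 in residual epithelium and 1.23 and 1.25 in brain. The part of RNA quality in the results was not tested.

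As a group the genes of ciliary transport and gating had higher signals in OSNs than in either other population, by amounts close to 2-fold against residual epithelium and 3-fold against brain. The members were chosen with earlier results of these data known, so the counts below describe them and are not an independent test. Against residual epithelium all 39 were counted, 18 passed 2-fold in OSNs and none was 2-fold lower, with a median log2 ratio of 0.92. Of all 12255 counted genes 12.8% were at least 2-fold higher and 18.7% lower, with a median of -0.05. A further 13 genes lay between 1.5-fold and 2-fold higher, and 38 of 39 ratios were above 0. Both signals reached the chip median for 38 of the 39, so the sign of their ratios was not fixed by the filter. At 3-fold or more were 3 of 39 members, close to the 6.45% of all counted genes.

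In OSNs 32 of 39 genes exceeded brain by at least 2-fold and none was 2-fold lower (median 1.62), while 18.5% of all 12377 counted genes were higher and 21% lower (median 0.05). Both signals reached the chip median for 34 of them, of which 27 were at least 2-fold higher. Under the same limit 1531 of all 9307 genes were higher. Residual epithelium over brain gave 15 of 38 higher and 2 lower (median 0.82), beside 22.5% of all 12917 genes higher and 18.9% lower (median 0.12). The members' share lay above that of all probe sets on chip B, where 14 of 23 member probe sets were higher, against 21.5% of all. On chip A 8 of 32 were higher and 4 lower, near the 20.7% of all that were higher. The comparisons share arrays and are not independent. With the arrays scaled on the probe sets of both chips the median of all genes over brain became -0.23 for OSNs and -0.14 for residual epithelium, and the members' counts became 28 and 11 higher, with Ahi1 then 2-fold lower in OSNs.

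Most members shared one order of levels. Among genes with at least 1 usable signal, 32 of 39 members had their highest signal in OSNs and their lowest in brain. This order, with residual epithelium between, was found in 19.3% of all 13315 genes. It counts steps of any size, among them some smaller than the SD between chips. Residual epithelium over brain was 0.08 for Ift27, 0.10 for Arl3 and 0.14 for Ift81. The log2 ratio of OSNs over residual epithelium was 0.09 for Ift52 and 0.13 for Mks1. OSNs held the highest signal for 36 of 39, against 31% of all genes. Brain was highest for Kifap3 and Ahi1 and residual epithelium for Ttc21b. In OSNs 16 members were at least 2-fold above both other populations, as were 6.53% of all genes. Over single probe sets the picture was similar, with OSNs highest in 52 of 60 that had a usable signal.

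**Figure D2:**
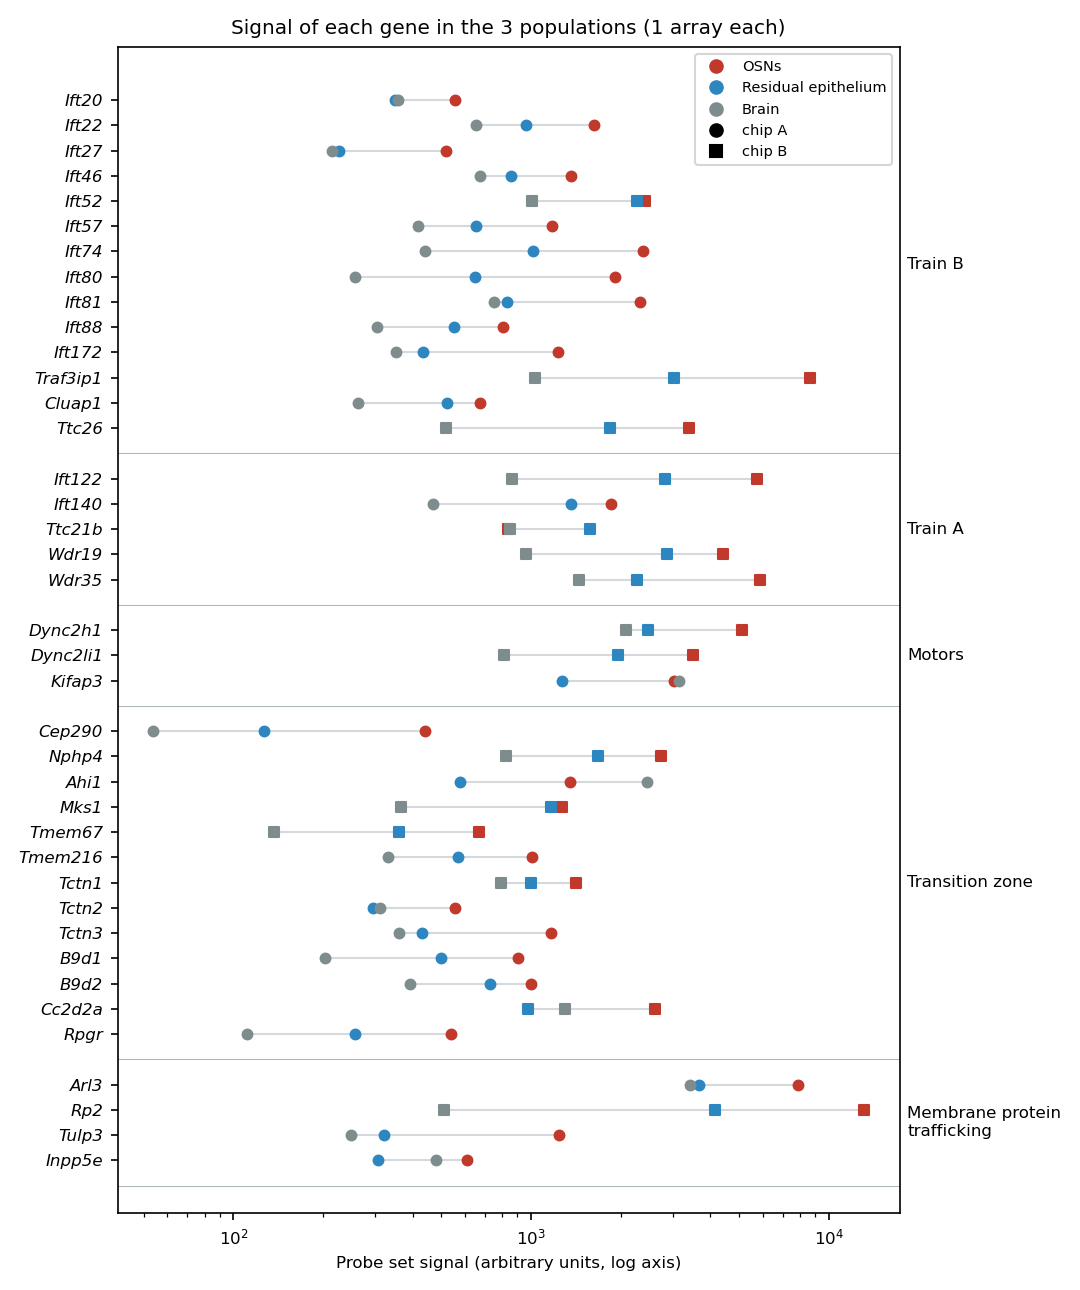
Signal of the representing probe set of each gene (horizontal axis, arbitrary units, log axis) in OSNs (red), residual epithelium (blue) and brain (grey), 1 array each, with circles for chip A and squares for chip B. OSNs lie to the right in 36 of 39 genes; levels may be compared along a row and not between rows, since probe sets differ in brightness.

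Train B, the complex that carries cargo outward, gave OSNs the higher signal over residual epithelium in each of its 14 genes, by less than 3-fold. All 14 genes were counted against residual epithelium, 6 were at least 2-fold higher and the median log2 ratio was 0.87. Against brain 13 of 14 were higher, with a median of 1.45. The brain signal of Ift27 was under the chip median, which fixes the sign of that ratio. Among the other 13 genes 12 were higher (median 1.49). Ift80, whose loss causes a skeletal ciliopathy in people, led the list against residual epithelium, with signals of 1918 in OSNs against 648 in residual epithelium and 256 in brain (1427568_a_at). This was 2.96-fold above residual epithelium and 7.48-fold above brain, and its other probe set gave log2 ratios of 1.55 and 1.93. Traf3ip1, which encodes IFT54 and binds microtubules, had 8666 in OSNs against 3026 in residual epithelium and 1030.5 in brain. It was 2.86-fold and 8.41-fold higher in OSNs, the largest ratio over brain in train B. Ift172, a large subunit that reaches across the train, had 1234 in OSNs against 433 in residual epithelium and 353 in brain, which made it 2.85-fold higher than in residual epithelium.

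Ift74 and Ift81 encode the pair of coiled-coil proteins that bind tubulin for delivery to the tip, and both were higher in OSNs. Ift74 had signals of 2382 in OSNs against 1017 in residual epithelium and 441 in brain, or log2 ratios of 1.23 over residual epithelium and 2.43 over brain. Ift81 had 2319 in OSNs against 832 in residual epithelium and 754 in brain by probe set 1419286_s_at, with log2 ratios of 1.48 and 1.62. Its other chip A probe set gave 0.94 and 1.42, and the chip B probe set, with signals of 261 in OSNs against 205 in residual epithelium and 250.2 in brain, gave 0.35 and 0.06, so 1 of 3 passed 2-fold within the epithelium. Ift27, a small GTPase that helps the BBSome leave the cilium, had 516 in OSNs against 227 in residual epithelium and 214 in brain by 1434299_x_at. Its 3 probe sets ranged from 0.65 to 1.19 over residual epithelium and from 1.27 to 1.56 over brain. The brain signal of all 3 was under the chip median, which fixes the sign of the ratios over brain. The residual signal of 1435736_x_at (173.5) was under it too. The suffix _x_at of 2 of the 3 marks probes that may also bind other transcripts.

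The other 8 genes of train B stayed within 2-fold of residual epithelium. Ttc26, which encodes IFT56 and carries the stricter X-box shown above, had signals of 3396 in OSNs against 1844 in residual epithelium and 517 in brain. Its log2 ratio was 0.88 within the epithelium and 2.72 against brain, below Traf3ip1 and Ift80 alone in train B. Ift88, the gene of the classic polycystic kidney mouse, had 806 in OSNs against 550.1 in residual epithelium and 303 in brain, with log2 ratios of 0.55 and 1.41. Ift52, a core scaffold protein, had 2416 in OSNs against 2276 in residual epithelium and 1009.5 in brain. Its log2 ratio was 0.09 within the epithelium, less than the SD between chips, and 1.26 over brain.

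Ift57, with 2 X-box matches in its window, had 1177 in OSNs against 652 in residual epithelium and 418 in brain by 1418929_at on chip A, a log2 ratio of 0.85 within the epithelium. Its chip B probe set 1446696_at went the other way, at -0.34, with 386 in OSNs against 490.1 in residual epithelium and 341 in brain. The direction of Ift57 within the epithelium therefore depends on the probe set. Ift22, which encodes a small GTPase-like subunit, had 1628 in OSNs against 964 in residual epithelium and 655 in brain, and Ift46, which in the alga Chlamydomonas carries outer dynein arms, had 1361 in OSNs against 857 in residual epithelium and 672 in brain. Ift20, the subunit that also resides at the Golgi, had 556 in OSNs against 348 in residual epithelium and 358 in brain, and was the only gene of train B within 2-fold of brain, at 0.64. Cluap1, or IFT38, had 672 in OSNs against 522 in residual epithelium and 262 in brain, with log2 ratios of 0.37 and 1.36.

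Train A, which brings cargo back and helps receptors to enter, had Ttc21b apart from the other 4 genes in both comparisons of OSNs. Of 5 genes 2 passed 2-fold over residual epithelium in OSNs and none was lower (median 0.62), and 4 were higher than in brain (median 2.02). Wdr35, or IFT121, had 5902 in OSNs against 2272 in residual epithelium and 1452 in brain by 1454790_at and was 2.60-fold and 4.06-fold higher. Its second probe set gave log2 ratios of 1.62 and 1.59. By its chip B probe set Ift122 had 5746 in OSNs against 2812 in residual epithelium and 864 in brain, a log2 ratio of 1.03 over residual epithelium that its chip A probe set repeated at 1.15. Over brain these 2 probe sets stood apart, at 2.73 on chip B and 1.18 on chip A. Ift122 thus had 2 probe sets in accord within the epithelium and a difference of size against brain.

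Wdr19, or IFT144, had 4405 in OSNs against 2866 in residual epithelium and 960.3 in brain by 1455669_at, with log2 ratios of 0.62 and 2.20, and its other probe set gave 1.33 and 2.38. Ift140, a core subunit of the train, had 1853 in OSNs against 1366 in residual epithelium and 468 in brain: the ratio within the epithelium was small, 0.44, and that over brain 1.99. Ttc21b, or IFT139, was the 1 member with a negative ratio within the epithelium. Probe set 1455322_at had 836 in OSNs against 1576 in residual epithelium and 849.7 in brain, a log2 ratio of -0.91 over residual epithelium and -0.02 over brain. The second probe set, 1453520_at, had 394 in OSNs against 332 in residual epithelium and 298 in brain, or 0.25 and 0.40. Neither probe set of Ttc21b reached 2-fold in a comparison of OSNs.

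Among the motor genes, those of dynein-2 and of kinesin-2 differed in how they stood to brain. Dync2h1, the heavy chain of the retrograde motor, had signals of 5099.6 in OSNs against 2473 in residual epithelium and 2081 in brain, and was 2.06-fold and 2.45-fold higher in OSNs. Dync2li1, its light intermediate chain, had 3492 in OSNs against 1960.5 in residual epithelium and 812 in brain, with log2 ratios of 0.83 and 2.11. Kifap3, the accessory subunit that joins the kinesin-2 motor chains, had 3029 in OSNs against 1275 in residual epithelium and 3143 in brain by 1451783_a_at. It was 2.38-fold above residual epithelium and level with brain (log2 ratio -0.05), and its second probe set gave 1.37 and -0.35. Kinesin-2 is known as a motor of axons as well as of cilia. Residual epithelium was the low population for Kifap3, 2.46-fold below brain.

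**Figure D3:**
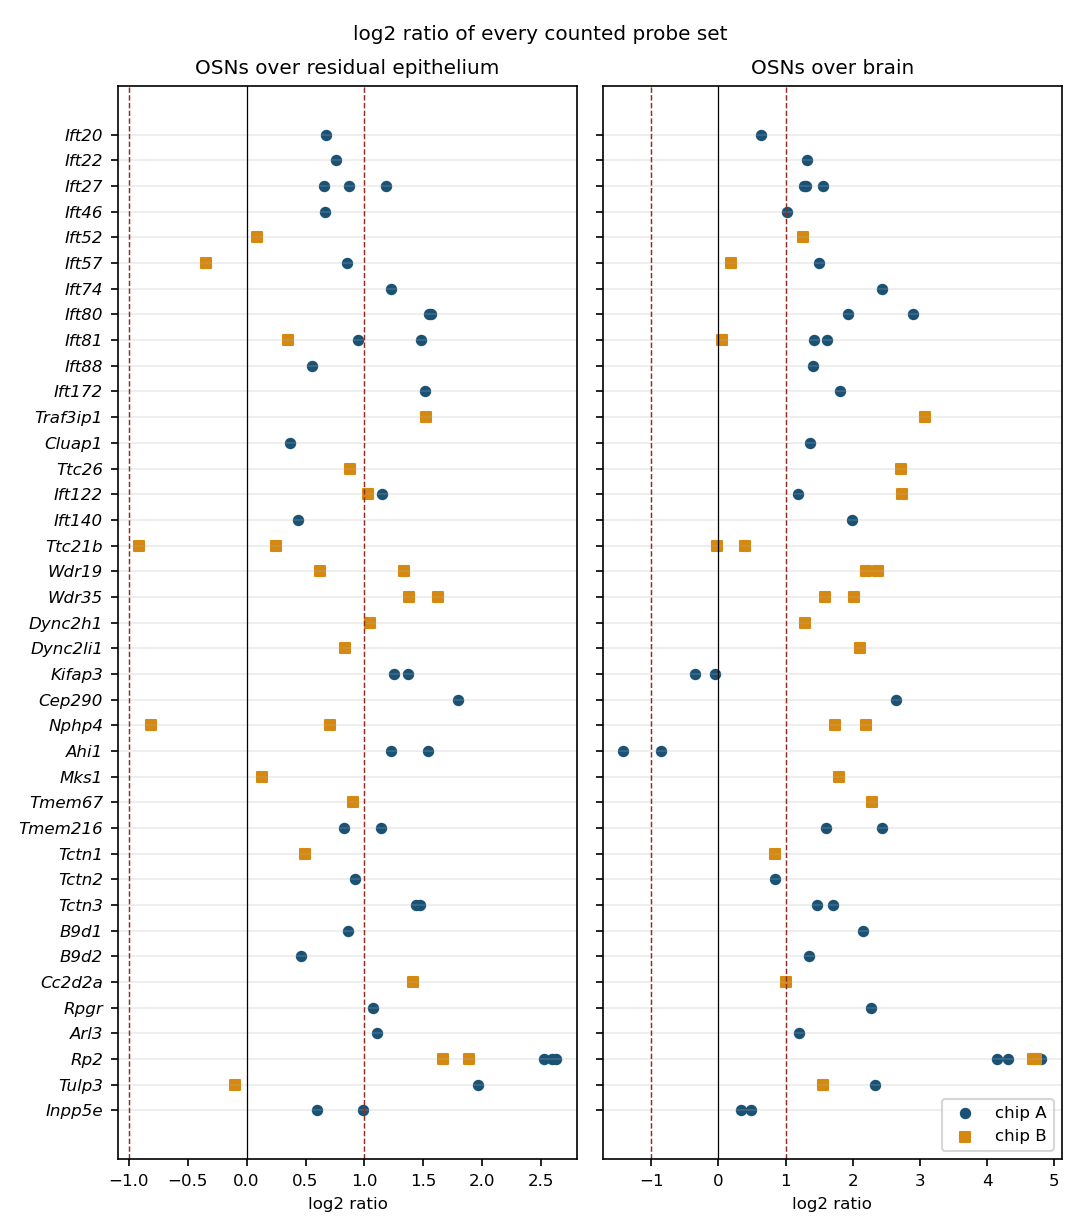
log2 ratio of every counted probe set of the 39 genes, OSNs over residual epithelium on the left and OSNs over brain on the right, with blue circles for chip A, orange squares for chip B and dashed lines at 2-fold. All 5 Rp2 probe sets stand apart on the right panel and the 3 of chip A do so on the left, while Ift57, Ttc21b, Nphp4 and Tulp3 have probe sets on either side of 0 in the left panel.

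The transition zone had 13 genes on the arrays, all counted in both OSN comparisons. Within the epithelium 5 of 13 passed 2-fold in OSNs and none was lower (median 0.90), and 10 of 13 were higher than in brain (median 1.70). For Cep290, Tmem67, B9d1 and Rpgr the brain signal was under the chip median, which fixes the sign of that ratio, and among the other 9 genes 6 were higher (median 1.35). Cep290, which links the axoneme to the ciliary membrane and is mutated in a retinal blindness, had 442 in OSNs against 127 in residual epithelium and 53.8 in brain. It was 3.47-fold above residual epithelium, the largest ratio of the zone, and at least 6.25-fold above brain, whose signal was under the floor. The residual signal of Cep290 did not reach the chip median either. Rpgr, a regulator of a small GTPase at the base of photoreceptor cilia, had 538 in OSNs against 256 in residual epithelium and 111 in brain, or 2.10-fold and 4.85-fold higher. Brain had the lowest signal of both genes.

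Tctn1, Tctn2 and Tctn3 encode the tectonic proteins of the Meckel complex. Tctn3 had 1169 in OSNs against 431 in residual epithelium and 359.8 in brain by 1424535_at and was 2.71-fold and 3.25-fold higher in OSNs. A second Tctn3 probe set gave log2 ratios of 1.47 and 1.46. Its residual and brain signals (109.7 and 110.1) were under the chip median, so the filter fixed both signs. Another Tctn3 probe set, on chip B, was not counted. Tctn2 had 557 in OSNs against 294 in residual epithelium and 310.1 in brain, log2 ratios of 0.92 and 0.84. Tctn1, with the stricter X-box downstream of its start, had 1416 in OSNs against 1002 in residual epithelium and 792 in brain, log2 ratios of 0.50 and 0.84. Of the 3 tectonic genes Tctn3 alone passed 2-fold, and the difference between the genes was not tested. Cc2d2a, a coiled-coil protein of the same complex, had 2609.7 in OSNs against 978 in residual epithelium and 1304 in brain. It was 2.67-fold above residual epithelium and only just past the 2-fold limit over brain.

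The B9 domain genes showed the same order of populations with unequal steps. Mks1, mutated in Meckel syndrome and with the stricter X-box just upstream of its start, had 1271 in OSNs against 1164 in residual epithelium and 366 in brain. Its log2 ratio was 0.13 within the epithelium and 1.80 against brain, so both epithelial populations lay above brain. B9d1 had 908 in OSNs against 499.7 in residual epithelium and 203 in brain, log2 ratios of 0.86 and 2.16. B9d2 had 1000.2 in OSNs against 726 in residual epithelium and 391 in brain, log2 ratios of 0.46 and 1.35. In OSNs all 3 genes exceeded brain by at least 2-fold and stayed within 2-fold of residual epithelium.

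Tmem67 and Tmem216 encode membrane proteins of the zone. Tmem67 had 671 in OSNs against 359.5 in residual epithelium and 137 in brain, log2 ratios of 0.90 and 2.29. Tmem216 had 1005 in OSNs against 568 in residual epithelium and 332 in brain by 1453567_s_at, log2 ratios of 0.82 and 1.60. Its dimmer probe set gave 1.14 within the epithelium, with a residual signal (172.3) under the chip median, which fixes that sign. Nphp4, of the nephronophthisis module, had 2744 in OSNs against 1680.5 in residual epithelium and 825 in brain by 1434024_at. Its log2 ratio within the epithelium was 0.71 by that probe set and -0.81 by 1431329_at, which had 368 in OSNs against 644 in residual epithelium and 60.9 in brain. Against brain the Nphp4 probe sets gave 1.73 and at least 2.20.

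Ahi1, the Joubert syndrome gene and a member with the stricter X-box, had its highest signal in brain. Probe set 1455177_at had 1354 in OSNs against 578 in residual epithelium and 2451 in brain, and 1439083_at had 267 in OSNs against 92.0 in residual epithelium and 712 in brain. In OSNs Ahi1 exceeded residual epithelium 2.34-fold by the first probe set, and brain exceeded both epithelial populations by both. Its log2 ratios over brain were -0.86 and -1.42, on either side of the 2-fold limit. AHI1 protein is known to be abundant in the cytoplasm of brain neurons. Residual epithelium was lowest for Ahi1, 4.24-fold below brain, as it was for Kifap3.

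Of the genes of membrane protein trafficking, 3 of 4 on the arrays exceeded both other populations by at least 2-fold in OSNs (medians 1.38 and 1.76). Arl3 is a small GTPase that releases lipid-modified cargo inside the cilium, and Rp2, the product of a retinitis pigmentosa gene, switches Arl3 off. Arl3 had 7872 in OSNs against 3663 in residual epithelium and 3427 in brain, or 2.15-fold and 2.30-fold higher in OSNs. Rp2 had 13147 in OSNs against 4149.7 in residual epithelium and 509.9 in brain by 1434061_at and was 3.17-fold above residual epithelium and 25.8-fold above brain. The Rp2 ratio over brain exceeded that of 99.4% of all counted genes, and its ratio within the epithelium exceeded 94.1%. All 5 Rp2 probe sets were at least 2-fold higher in both comparisons, though the brain signal of 4 was under the chip median.

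The size of the Rp2 step within the epithelium differed between the chip A and chip B probe sets. These are different probe sets, so chip and probe set cannot be told apart here. Over residual epithelium the 3 chip A probe sets of Rp2 gave log2 ratios of 2.52, 2.63 and 2.59, and the 2 on chip B 1.66 and 1.89. Chip A signals of probe set 1419585_at were 2191 in OSNs against 381 in residual epithelium and 110.5 in brain. Over brain the Rp2 probe sets ranged from 4.14 to at least 4.81, where the brain signal of 1419587_s_at was under the floor. On both chips the order of populations for Rp2 was the same.

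Tulp3, a tubby-like protein that links train A to receptor cargo, had 1246 in OSNs against 320.1 in residual epithelium and 248 in brain by 1449008_at on chip A. It was 3.89-fold above residual epithelium and 5.02-fold above brain. The chip B probe set 1453082_at had 321 in OSNs against 343 in residual epithelium and 109 in brain, a log2 ratio of -0.10 within the epithelium and 1.56 over brain. Tulp3 was thus higher than in brain by both counted probe sets, the brain signal of the second lying under the chip median, and higher within the epithelium by 1 of 2. Inpp5e, the phosphatase that sets the lipid makeup of the ciliary membrane, had 608 in OSNs against 306 in residual epithelium and 481 in brain. Its log2 ratio of 0.99 within the epithelium fell just short of 2-fold, and that over brain was 0.34. The second Inpp5e probe set, 1423230_at, gave 0.59 and 0.48. Its residual and brain signals (202.8 and 219.8) were under the chip median, so the filter fixed both signs.

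Agreement between probe sets limits how single genes may be read. With both signals at or above the chip median, 12 members had at least 2 probe sets within the epithelium. In 8 of them all lay on the same side of 0, a share similar to the 2533 of all 3803 such genes. In 5 all were at least 2-fold higher in OSNs (Ift122, Ift80, Kifap3, Rp2 and Wdr35), against 5.78% of all such genes. Ift57, Nphp4, Ttc21b and Tulp3 had probe sets of opposite sign. Against brain 8 of 9 such members had a single sign, beside 2393 of all 3738 such genes. All probe sets were at least 2-fold higher in 4 members (Ift122, Ift80, Wdr19 and Wdr35), against 7.44% of all. By chip, 21 of 37 probe sets on chip A and 9 of 23 on chip B were at least 2-fold higher than in residual epithelium, against 12.7% and 13.9% of all named probe sets. Over brain it was 29 of 37 and 18 of 23, against 16.2% and 19.2%.

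Ratios were also set against the X-box matches, without a test. Over residual epithelium the 12 genes with the looser motif had a median log2 ratio of 0.79 (2 at least 2-fold higher), against 1.14 for 22 genes with a window and no match (13 higher). Over brain the medians were 1.42 and 1.56. Tulp3, Cep290 and Rp2, the 3 members at 3-fold or more within the epithelium, had neither motif in their windows. Of the 5 genes shown above with the stricter motif, Ahi1 was 2.34-fold above residual epithelium. Ttc26, Mks1, B9d2 and Tctn1 were within 2-fold of it.

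A wider list was set beside the members. It holds 49 further genes of ciliary transport, of the ciliary base and of its control, among them the centriole cap genes Ccp110 and Cep97. Of these 40 were counted within the epithelium. In OSNs 16 passed 2-fold over residual epithelium and none was lower (median 0.85). Against brain 25 of 40 were higher and 1 lower (median 1.55). Highest within the epithelium was Pde6d, the carrier that hands lipid-modified proteins to Arl3, at 5656 in OSNs against 936 in residual epithelium and 429.7 in brain (6.04-fold). Ttc30b, a train B subunit, was 5.03-fold and the kinesin gene Kif17 3.60-fold higher. The residual signal of Kif17 (207.4) was under the chip median, which fixes the sign of that ratio. Lowest were Ccp110, Unc119 and Cep97, with log2 ratios of -0.72, -0.71 and -0.67. Against brain Ift43 of train A (17.2-fold), the dynein light chain gene Dynlrb2 (15.7-fold) and Pde6d (13.2-fold) were highest. The small GTPase gene Arl2 was 2.78-fold lower there, and Kif17 and Unc119 had log2 ratios of -0.38 and -0.35.

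Most genes of other cilia lists also had higher signals in OSNs than in residual epithelium. In the BBSome list 8 of 11 genes passed 2-fold over residual epithelium in OSNs (median 1.43), with Bbs1 (4.37-fold) and Ttc8 (4.30-fold) highest and Bbs12 and Bbs10 lowest, at log2 ratios of 0.05 and 0.17. In the list of motile axoneme genes, which also serve as markers of multiciliated cells of the airway, 25 of 29 were higher and 1 lower (median 2.40). Spef2 and Drc1 were highest, at 4.94 and 3.76, and Cfap43 and Cdhr3 lowest, at -1.28 and 0.02. Only 12 of the 29 had both signals at the chip median, so the sign of most of these ratios was fixed by the filter. The summed signal of that list was 9517 in OSNs against 1760.4 in residual epithelium and 1811 in brain for 11 genes on chip A, and 43728.5 in OSNs against 6847 in residual epithelium and 4843 in brain for 23 genes on chip B. Foxj1, the master factor of motile cilia, had 988 in OSNs against 187 in residual epithelium and 115 in brain, and Spag6l on chip A and Deup1 and Spag17 on chip B were under the floor in OSNs. The part of multiciliated cells in the members' ratios was not tested. The differences between these lists and the members were not tested either.

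**Figure D4:**
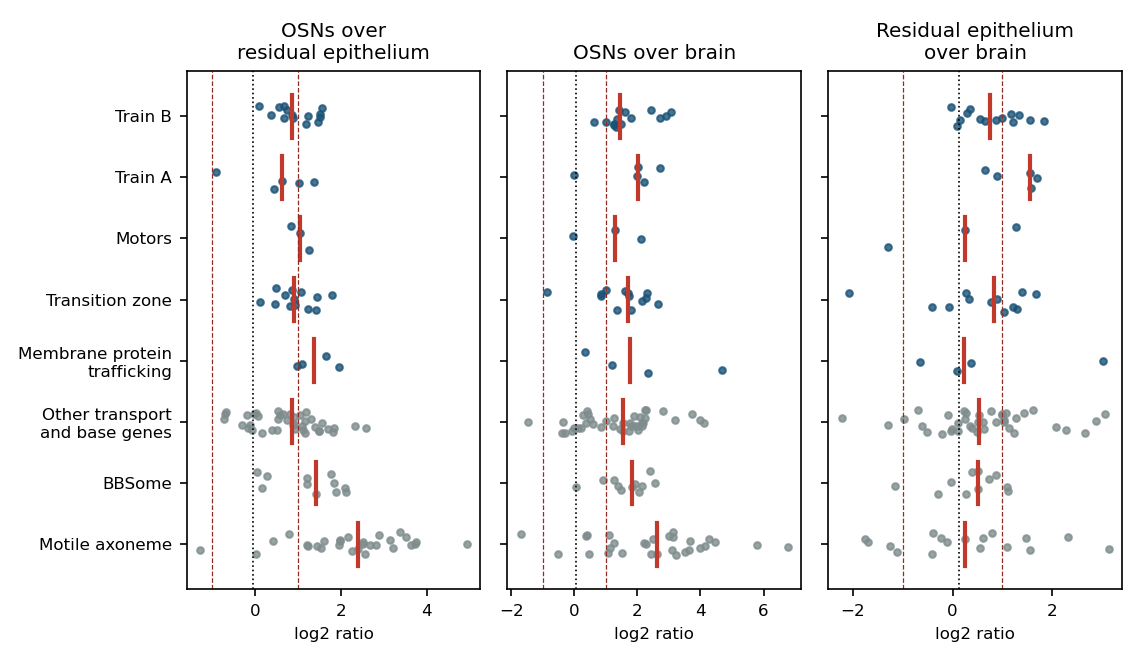
log2 ratio of each counted gene (points) by list, for OSNs over residual epithelium, OSNs over brain and residual epithelium over brain, with a red bar at the list's median, a dotted line at the median of all counted genes and dashed lines at 2-fold. Points of the 5 role groups are dark blue and those of other cilia lists grey. The role group medians run from 0.62 to 1.38 in the first panel and from 1.29 to 2.02 in the second. Most train A genes were read on chip B and most train B genes on chip A, so these medians do not tell role from chip.

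Residual epithelium over brain, where the chips differ as given above, gave unequal counts by role. Train A had 3 of 5 genes at least 2-fold higher in residual epithelium than in brain (median 1.55) and train B 5 of 14 (median 0.75). Of 12 counted transition zone genes 5 were higher and Ahi1 was lower. Most train A genes were read on chip B and most train B genes on chip A. Member probe sets had medians of 1.17 on chip B and 0.41 on chip A, so role and chip cannot be told apart here. Ift122, one of the 3 train A genes, gave 0.03 by its chip A probe set. Ttc26 and Rp2 had the largest ratios of their groups, 3.57-fold and 8.14-fold. Ift20, Ift27 and Ift81 lay level with brain, at -0.04, 0.08 and 0.14.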

How the data were processed

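The values analysed are probe set signals, a linear intensity with 1 colour, as deposited by the authors. MAS5 is the tool named, without a version, per the submitters' processing notes of 5 of 6 arrays. Those of the chip A brain array name none. The mean between percentile 2 and percentile 98 was 499.6 to 499.9 on all 6 arrays, so each had been scaled to a common level and RNA per cell is not measured. For background correction, scaling target and genome build nothing is given in the sources used here. Gene symbols came from the platform annotation. 64 control probe sets per chip were left out.

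Ratios were taken within a chip on log2 signals raised to the lower quartile of the chip, with the filter at its median and calls at 2-fold. With 1 array per population and chip no test across samples is possible, and the number of arrays limits the precision. The members, their groups and the lists were chosen with earlier results of these data known. All members are named, with the 3 highest and 3 lowest genes of the further pathway list, the 2 highest and 2 lowest of every other list, and Omp. Foxj1 and the motile genes under the floor were chosen after their values were seen. Alternatives were other floors, filters, scalings, probe set rules and folds. The computation was tested on simulated data. Tools were pandas 2.3.3 with numpy 2.4.6 under Python 3.11.15, and figures came from matplotlib 3.10.9.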

Additional observations from a re-analysis of the deposited data

How the results depend on the processing

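The members' median log2 ratio stayed above 0 in all 3 comparisons under every alternative for floor, filter, scaling and probe set. It ranged from 0.88 to 0.99 for OSNs over residual epithelium, from 1.44 to 1.70 for OSNs over brain and from 0.54 to 0.92 for residual epithelium over brain. Counts at 2-fold ranged from 15 to 19, from 28 to 32 and from 11 to 16 in the same order under those alternatives. The fold chosen for a call mattered most. At 1.5-fold 31 members were higher in OSNs than in residual epithelium, against 22.7% of all counted genes. At that fold 1 member was lower in OSNs than in residual epithelium, and 1 was lower than in brain. At 3-fold 3 of 39 members were higher in OSNs than in residual epithelium, against 6.45% of all counted genes. Over brain 21 of 39 were higher in OSNs, against 10.1%. In residual epithelium 4 of 38 were higher than in brain and 1 lower, where 12.9% of all genes were higher. The members' share was thus not above that of all genes in this last comparison. Fewer calls at 3-fold follow from the stricter limit. Ahi1 became 2-fold lower in OSNs than in brain, giving a count of 1, with arrays scaled on the probe sets of both chips, with the median over probe sets and with the lowest probe set. Of 1134 values of single genes under an alternative, 93 moved by more than the SD between chips, and 1 ratio of 2-fold or more changed sign: Tulp3 over residual epithelium was -0.10 with its lowest probe set. Group medians and counts moved in 39 of 330 cases. The motor group over brain had 1 of 3 higher with shared-probe scaling, and train A within the epithelium had 1 of 5 higher with quantile normalization. The causes were not tested. No paired analysis was possible because each population has 1 array per chip and the labels give no replicate numbers. Low signals limit Cep290, the dimmer Tmem216 probe set and the third Tctn3 probe set, which lay near or under the floor in at least 1 population.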

Other observations

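The other kinesin-2 subunits, chosen after their values were seen, are set beside Kifap3. Kif3a had signals of 3789 in OSNs against 1773 in residual epithelium and 2526 in brain, with a log2 ratio of 1.10 over residual epithelium and 0.58 over brain. Kif3b had 1008 in OSNs against 462 in residual epithelium and 744 in brain, with 1.12 and 0.44, and Kif3c, a motor chain of neurons, had 3346 in OSNs against 2011 in residual epithelium and 3098 in brain, with 0.73 and 0.11. As with Kifap3, residual epithelium was the lowest population for all 3 by the representing probe set, and OSNs lay within 2-fold of brain.

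Ccp110 and Cep97 encode partner proteins that cap the mother centriole and hold back cilium growth. Ccp110 had signals of 10508 in OSNs against 17267 in residual epithelium and 2337 in brain, and Cep97 had 1308 in OSNs against 2081 in residual epithelium and 1021 in brain. Both were highest in residual epithelium, within 2-fold of OSNs. The 4 counted probe sets of Cep97 ranged from -1.05 to 0.25 in the log2 ratio of OSNs over residual epithelium, so its direction depends on the probe set.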
